A study of Homo sapiens with 25 samples.

Results

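The genes described here encode writers, readers and erasers of methylation at lysine 9 of histone H3 (H3K9). They are the methyltransferases SETDB1, SUV39H2, EHMT1 and EHMT2, the corepressor TRIM28, the heterochromatin protein 1 (HP1) genes CBX1, CBX3 and CBX5, and the demethylases KDM4A and KDM4B. These 10 genes were listed by name, with earlier results of these data known, out of 19970 protein-coding genes of GENCODE release 44. The data are chromatin immunoprecipitation sequencing of MDA-MB-231, a human triple-negative breast cancer line, in 25 libraries. Control cells were compared with cells in which PML, the protein that builds the nuclear bodies named after it, was silenced by a lentiviral short hairpin RNA (PML knockdown). The hairpin given to the control cells, if any, and the time after silencing are not given in the sources used here. H3K4me3 (active promoters), H3K27ac (active promoters and enhancers), H3K9me3 (heterochromatin) and lamin B1 (LMNB1, nuclear lamina) were each profiled in 2 libraries per condition. PML itself was profiled in 3 libraries whose titles name no condition.

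H3K9 methylation is laid down by SET-domain enzymes. SUV39H2 trimethylates H3K9 in constitutive heterochromatin, SETDB1 does so at retroelements and zinc finger gene clusters when recruited through TRIM28, and the paired enzymes EHMT1 and EHMT2 mainly place the mono- and dimethyl marks in euchromatin. HP1 proteins bind the methylated lysine and compact chromatin, and KDM4A and KDM4B remove the trimethyl mark. HP1 proteins and the lamina meet at the nuclear periphery, where much H3K9me3 chromatin lies.

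The remaining libraries, 4 of H3K27me3 and 2 of input, have no list and are not described here. Each of the other targets and conditions has 1 list, called from pooled replicates for both peak marks. The conditions are therefore set side by side without replicates or a test, and the read depth is unknown. What a list does not hold did not reach the threshold its authors set. Fold enrichments of peaks are those the authors deposited and serve only to rank peaks within 1 list. Values printed for both conditions are not on 1 scale and give no difference between them. The cell identity of the lists was checked on promoters: VIM, CD44, EGFR and CAV1, genes of mesenchymal and basal cells, held peaks of both marks in both conditions. Promoters of PTPRC, CD3E and PECAM1, markers of leukocytes and endothelium, held none in any list. The luminal markers were mixed: GATA3 held none, ESR1 held H3K4me3 in both conditions, PGR held H3K4me3 in the knockdown list only, and KRT8 and KRT18 held both marks in both conditions. COL1A1, a fibroblast marker, also held both marks in both conditions. The lists measure no transcript, so the knockdown of PML cannot be read from them.

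Before the peak values, the DNA at the starts of 6 of the genes is shown, because the promoter peaks described after it lie around these stretches. A transcript of another gene started on the opposite strand within 1 kb upstream of 6 of the 10 genes, against 24.5% of all protein-coding genes. The partners were HNRNPA1 at CBX5 and HNRNPA2B1 at CBX3, which encode abundant RNA-binding proteins, the complement gene C2 at EHMT2, the long noncoding RNAs ARRDC1-AS1 at EHMT1 and SUV39H2-DT at SUV39H2, and the small noncoding RN7SL525P at TRIM28. The last 4 partners were named after the annotation around the genes had been seen. Canonical starts lay 604 bp apart for CBX5 and HNRNPA1 and 999 bp apart for CBX3 and HNRNPA2B1. The nearest annotated opposite start was closer, 71 bp away at CBX5, 87 bp at EHMT2, 99 bp at EHMT1, 139 bp at SUV39H2, 216 bp at CBX3 and 486 bp at TRIM28.

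The sequences below lie upstream of the start and outside every annotated exon. They are read 5′ to 3′ along the strand of the named gene from hg38, with capitals marking matches, on either strand, to the motifs listed after them. At CBX5 (chr12:54280134-54280192, minus strand, 59 bp), EHMT1 (chr9:137618907-137618991, plus strand, 85 bp), EHMT2 (chr6:31897699-31897784, minus strand, 86 bp) and SUV39H2 (chr10:14878728-14878819, plus strand, 92 bp) the stretch is all that separates the opposed transcripts. At CBX3 (chr7:26201562-26201744, plus strand, 183 bp) it is the stretch before the canonical start, intronic to transcripts that start farther upstream. KDM4B (chr19:4968863-4969112, plus strand, 250 bp) has no opposed partner and is shown because its start, like 3 of the others, lay between H3K4me3 peaks.
CBX5: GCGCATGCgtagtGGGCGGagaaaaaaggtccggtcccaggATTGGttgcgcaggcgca
EHMT1: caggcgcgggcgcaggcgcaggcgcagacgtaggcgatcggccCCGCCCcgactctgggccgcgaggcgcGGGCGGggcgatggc
EHMT2: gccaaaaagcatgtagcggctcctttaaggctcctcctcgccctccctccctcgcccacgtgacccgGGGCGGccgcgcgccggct
SUV39H2: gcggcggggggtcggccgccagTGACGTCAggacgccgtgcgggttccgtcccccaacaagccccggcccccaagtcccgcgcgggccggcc
CBX3: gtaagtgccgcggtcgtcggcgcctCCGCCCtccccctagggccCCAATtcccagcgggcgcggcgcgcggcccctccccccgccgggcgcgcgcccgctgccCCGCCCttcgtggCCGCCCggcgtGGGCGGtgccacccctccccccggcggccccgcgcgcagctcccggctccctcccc
KDM4B: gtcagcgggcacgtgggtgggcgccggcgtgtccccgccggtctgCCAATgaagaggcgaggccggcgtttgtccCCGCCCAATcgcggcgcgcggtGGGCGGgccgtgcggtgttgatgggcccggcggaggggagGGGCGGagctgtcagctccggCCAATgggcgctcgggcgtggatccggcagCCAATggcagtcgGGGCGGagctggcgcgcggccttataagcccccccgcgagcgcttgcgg

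Motifs were counted in RefSeq promoter windows of GRCh38.p14, 250 bases before to 50 after the start, which were found for 9 of the 10 genes, all but TRIM28. The windows of CBX1 and CBX3 lay 292 and 302 bp from the canonical start. The CBX3 window does not overlap the CBX3 stretch printed above, which has a GC content of 84.7% and 30 CpG in 183 bp. The motifs of that stretch, its CCAAT among them, are therefore not in the counts below. The GC box GGGCGG was present at CBX3, CBX5, EHMT1, EHMT2, KDM4B and SUV39H2, 6 of 9 windows, against 61.8% of 15315 protein-coding windows. CCAAT was present at CBX5, KDM4A and KDM4B, 3 of 9 against 36.6%, and in the KDM4B stretch one CCAAT shares bases with a GC box. CCGGAAG, an ETS-type motif, was present at CBX3 and SETDB1 (2 of 9 against 14.7%). The NRF1-type motif GCATGCGC was present in 1 window, at CBX5 (4.37% of all), and the cyclic AMP response element TGACGTCA in 1, at SUV39H2 (2.76%). The TATA box TATAAA (9.42% of all) and the E2F-type motif TTCCCGCC (4.45%) were in none of the 9. These shares are near those of all promoters or rest on 1 or 2 windows. The windows had CpG observed-to-expected ratios from 0.708 at CBX3 to 1.100 at CBX5 and a median of 0.904, against 0.783 over all windows. Their GC content ran from 57.3% at CBX5 to 79.3% at EHMT1 (median 66.7%, all windows 63.7%). Of the 9 windows, 6 were above the median of all windows for the CpG ratio and 5 for GC content.

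Every one of the 10 promoters carried H3K4me3 and H3K27ac peaks in both conditions, and none was marked in 1 condition only. A promoter was the canonical start with 1 kb on either side. Over all protein-coding genes, 61.8% and 63.7% of promoters held an H3K4me3 peak in the control and knockdown lists, and 50.8% and 53.7% an H3K27ac peak. Promoters marked in 1 list only were 0 of 10 for each mark and condition, and rare overall: 0.0951% (control) and 1.79% (knockdown) for H3K4me3, and 0.666% and 3.24% for H3K27ac. With so few in the background, a count of 0 among 10 is close to what all genes show.

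**Figure D1:**
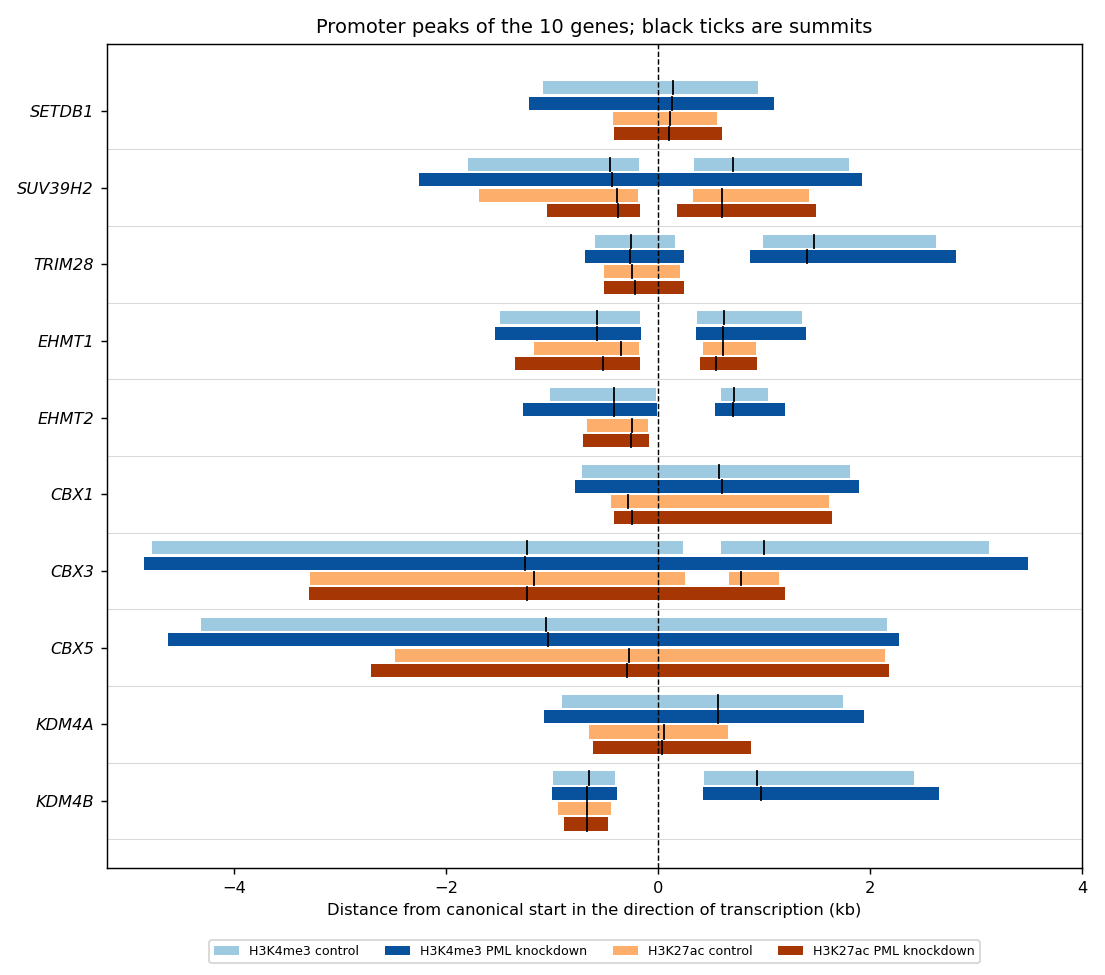
Promoter peaks of the 10 genes in the 4 peak lists, drawn by distance from the canonical start (dashed line) in kb, with upstream to the left. Bars are peaks and black ticks summits. CBX3 and CBX5 have the longest bars, and the start of EHMT1, EHMT2 and KDM4B lies between H3K4me3 peaks in both conditions.

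The HP1 genes CBX3 and CBX5 had the widest promoter peaks of the set, and CBX1 did not share this. Widths are summed over the peaks that touch the promoter, each taken whole. CBX5 (ENSG00000094916.16, chromosome 12, 54230942 to 54280133, minus strand) encodes HP1 alpha. Its single H3K4me3 peak was 6473 bp wide in the control list and 6896 bp in the knockdown list, percentiles 99.48 and 99.01 among marked promoters. With positions in bp from the start, negative upstream, it reached from -4309, past the HNRNPA1 start, to 2163 in the control list, with its summit at -1054, on the HNRNPA1 side. The H3K27ac peak was 4629 and 4894 bp wide, with its summit at -275 and -294.

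CBX3 (ENSG00000122565.19, chromosome 7, 26201162 to 26213607, plus strand) encodes HP1 gamma. Its H3K4me3 peaks summed to 7545 bp in the control list and 8338 bp in the knockdown list, percentiles 99.8 and 99.6. In the control list they were separate peaks of 5012 and 2533 bp with a gap of 350 bp, and in the knockdown list 1 peak of 8338 bp spanned the gap. H3K27ac had the same form, with peaks of 3532 and 468 bp in the control list and 1 of 4487 bp in the knockdown list. The highest H3K4me3 summit lay at -1239 in the control and -1258 in the knockdown list, on the HNRNPA2B1 side. Fold enrichments at CBX3 and CBX5 ranked between percentiles 90.8 and 99.4 among marked promoters in all 4 lists. Because both promoters are shared with a neighbour, the peaks cannot be assigned to the HP1 gene alone. Over all genes, marked promoters with an opposed start within 1 kb had a median control H3K4me3 width of 2453 bp, against 1815 bp for those without one.

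CBX1 (ENSG00000108468.15, chromosome 17, 48070052 to 48101478, minus strand) encodes HP1 beta. Its H3K4me3 peak was 2525 bp in the control and 2682 bp in the knockdown list, percentiles 69.6 and 62.9. Its H3K27ac peak was nearly as wide, 2060 and 2053 bp, but shallow: fold enrichments of 3.26 and 3.09 stood at percentiles 8.42 and 3.33, the lowest H3K27ac ranks of the 10 genes in both lists. Its H3K4me3 fold enrichments stood at percentiles 54.3 and 65.5.

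Among the writers, SUV39H2, EHMT1 and EHMT2 had a gap in H3K4me3 at the start in the control list, flanked by a peak on each side. At SUV39H2 (ENSG00000152455.16, chromosome 10, 14878820 to 14904315, plus strand) control H3K4me3 peaks of 1615 and 1465 bp left 519 bp free, and in the knockdown list 1 peak of 4177 bp covered the start. The H3K27ac gap stayed in both lists, 514 bp in the control and 351 bp in the knockdown list. The upstream H3K27ac peak began at -1686 in the control list and at -1051 in the knockdown list, so the summed H3K27ac width was 2598 and 2189 bp. SUV39H2 thus had a wider H3K4me3 span and a narrower H3K27ac span in the knockdown list.

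EHMT1 (ENSG00000181090.21, chromosome 9, 137618992 to 137870016, plus strand) had H3K4me3 peaks of 1316 and 984 bp around a gap of 544 bp in the control list, and of 1375 and 1036 bp around 521 bp in the knockdown list. Its H3K27ac peaks had the same form, with gaps of 607 and 566 bp. The upstream H3K27ac peak had a fold enrichment of 4.76 (control) and 12.2 (knockdown), and the downstream peak of 4.84 and 5.12. The higher H3K27ac peak was thus the downstream one in the control and the upstream one, toward ARRDC1-AS1, in the knockdown list. By its higher peak, EHMT1 stood at percentile 23.2 of marked promoters in the control and 54.0 in the knockdown H3K27ac list.

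EHMT2 (ENSG00000204371.12, chromosome 6, 31879759 to 31897698, minus strand) was lopsided. Its wider and higher H3K4me3 peak lay upstream, toward C2, a peak of 995 bp with fold enrichment 34.2 (control) and of 1259 bp with 62.0 (knockdown). The downstream peak was small, 449 bp with 2.42 and 663 bp with 6.02. H3K27ac was found upstream only, over 581 and 623 bp, and did not reach the start. The H3K4me3 fold ranked at percentile 88.5 (control) and 84.3 (knockdown) and that of H3K27ac at 19.6 and 27.8.

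SETDB1 (ENSG00000143379.13, chromosome 1, 150926263 to 150964744, plus strand) and KDM4A (ENSG00000066135.13, chromosome 1, 43650149 to 43705518, plus strand) had 1 peak of each mark over the start in both conditions and no opposed partner. At SETDB1 H3K4me3 spanned 2029 and 2304 bp, close to the medians of all marked promoters (2029 and 2330 bp), with H3K27ac over 973 and 1021 bp. At KDM4A H3K4me3 spanned 2649 and 3014 bp and H3K27ac 1310 and 1491 bp. KDM4A also shares its start with an annotated readthrough gene (ENSG00000284989), so its promoter counts for both.

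TRIM28 (ENSG00000130726.12, chromosome 19, 58544064 to 58550722, plus strand), a short gene of 6.66 kb, had its stronger H3K4me3 peak inside the gene. A small peak over the start (757 bp, fold enrichment 4.76 in the control list, and 937 bp, 13.8 in the knockdown list) was followed by one of 1636 bp with 19.5 and of 1941 bp with 53.9. That second peak began 989 bp downstream in the control and 868 bp in the knockdown list, so it counts as a promoter peak by a narrow margin. An H3K27ac peak lay over the start in both lists (722 bp in the control and 763 bp in the knockdown list). In the knockdown list only, a second H3K27ac peak of 1140 bp (fold enrichment 4.25) lay 1.37 kb downstream, in exon 2.

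KDM4B (ENSG00000127663.15, chromosome 19, 4969113 to 5153598, plus strand) had the longest gap at a start. H3K4me3 peaks of 586 and 1980 bp left 838 bp free in the control list, and peaks of 608 and 2227 bp left 811 bp in the knockdown list. The stretch printed above lies wholly in it. H3K27ac covered 503 and 424 bp, all upstream, the narrowest H3K27ac promoters of the 10 genes and at percentiles 9.06 and 3.99 of marked promoters.

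In total, 6 of 10 promoters held 2 H3K4me3 peaks in the control list and 4 of 10 in the knockdown list, against 21.3% and 14.4% of all marked promoters that held 2 or more. The 6 were SUV39H2, TRIM28, EHMT1, EHMT2, CBX3 and KDM4B. For H3K27ac the counts were 3 and 2 of 10, against 21% and 14.2%. The canonical start was under no H3K4me3 peak in 4 of 10 control and 3 of 10 knockdown promoters (28.6% and 19% of all marked promoters), and under no H3K27ac peak in 4 and 4 of 10 (40.6% and 30.5%). These were SUV39H2, EHMT1, EHMT2 and KDM4B in each list, except that SUV39H2 was covered by H3K4me3 in the knockdown list. Of the 6 genes with an opposed start within 1 kb, 5 held 2 control H3K4me3 peaks, and of the 4 without one, 1 did. Over all genes these shares hardly differed: 21.7% of marked promoters with an opposed start within 1 kb and 21.0% of those without one held 2 or more control H3K4me3 peaks.

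H3K27ac was nested in H3K4me3 at all 10 promoters. At least 93.6% of H3K27ac promoter bases lay inside H3K4me3 promoter peaks, the lowest value being TRIM28 in the control list. This is the usual state: of all promoters with both marks, 87% (control) and 91.4% (knockdown) had at least 90% of their H3K27ac promoter bases inside H3K4me3. The share of H3K4me3 bases that also carried H3K27ac spread widely, from 19.6% at KDM4B to 84.0% at SUV39H2 in the control list and from 15.0% at KDM4B to 76.5% at CBX1 in the knockdown list. At SUV39H2 it was 84.0% in the control and 52.4% in the knockdown list, and at the other 9 genes the lists differed by less.

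**Figure D2:**
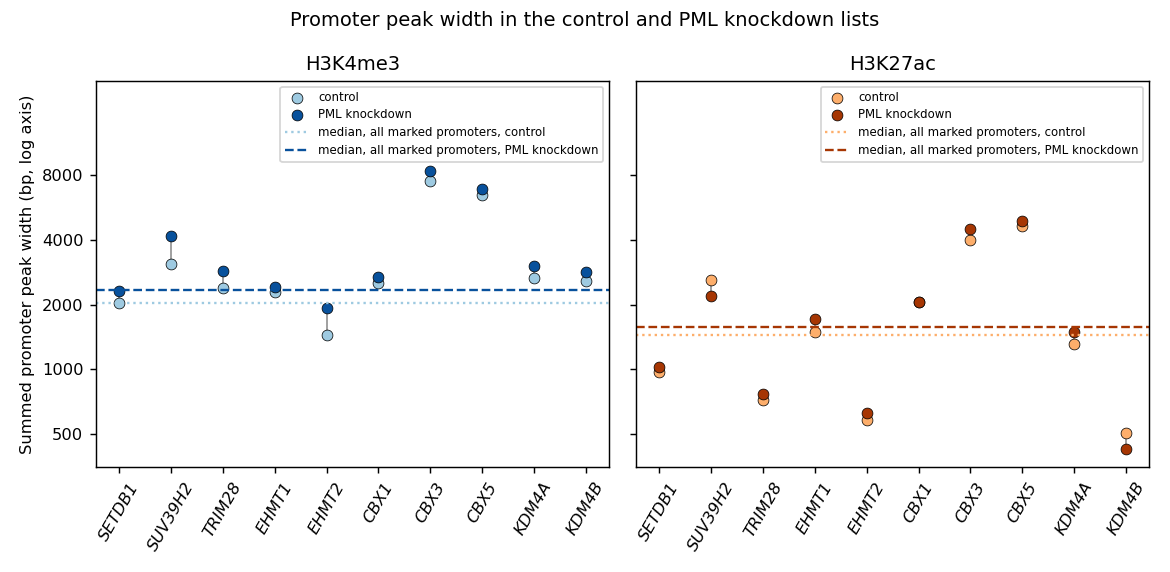
Summed promoter peak width (bp, log axis) of each gene in the control and knockdown lists, H3K4me3 left and H3K27ac right, with lines at the medians of all marked promoters. CBX3 and CBX5 stand highest for both marks, and all 10 genes are wider in the knockdown H3K4me3 list.

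The H3K4me3 peaks of all 10 genes were wider in the knockdown list, as were those of 95.5% of all promoters marked in both lists. The median ratio of knockdown to control width was 1.12 over the 10 genes, with a range from 1.05 at EHMT1 to 1.36 at SUV39H2, and 1.14 over 12328 promoters, of which the middle 50% ran from 1.07 to 1.27. EHMT2 (1.33) and SUV39H2 were above that middle range, and EHMT1, CBX1 and CBX5 below it. At SUV39H2 and CBX3 the knockdown width takes in the control gap, 519 and 350 bp, which the control width leaves out. By its outer edges, SUV39H2 H3K4me3 ran from -1795 to 1803 in the control and from -2254 to 1922 in the knockdown list. H3K27ac peaks were wider in the knockdown list for 7 of 10 genes, against 70.5% of promoters marked in both. The exceptions were SUV39H2 and KDM4B, both with a ratio of 0.843, and CBX1 with 0.997. Counting all bases within 2500 bp of the start instead, 8 of 10 were wider. KDM4B then had 503 bp in the control and 1301 bp in the knockdown list, through a peak in intron 1 found in the knockdown list only, and TRIM28 had 722 and 1903 bp. The median H3K27ac ratio was 1.06 over the 10 genes and 1.08 over all 10009 promoters. For both marks the shares and ratios of the 10 genes were near those of all promoters. The knockdown lists also held more peaks, 27760 against 22211 for H3K4me3 and 43615 against 42320 for H3K27ac. The part of this in the widths was not tested. Fewer H3K4me3 promoter peaks in the knockdown list were found at SUV39H2 and CBX3, 2 of 10 genes (9.17% of all promoters marked in both). For H3K27ac this was found at CBX3, 1 of 10 (10.2%).

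**Figure D3:**
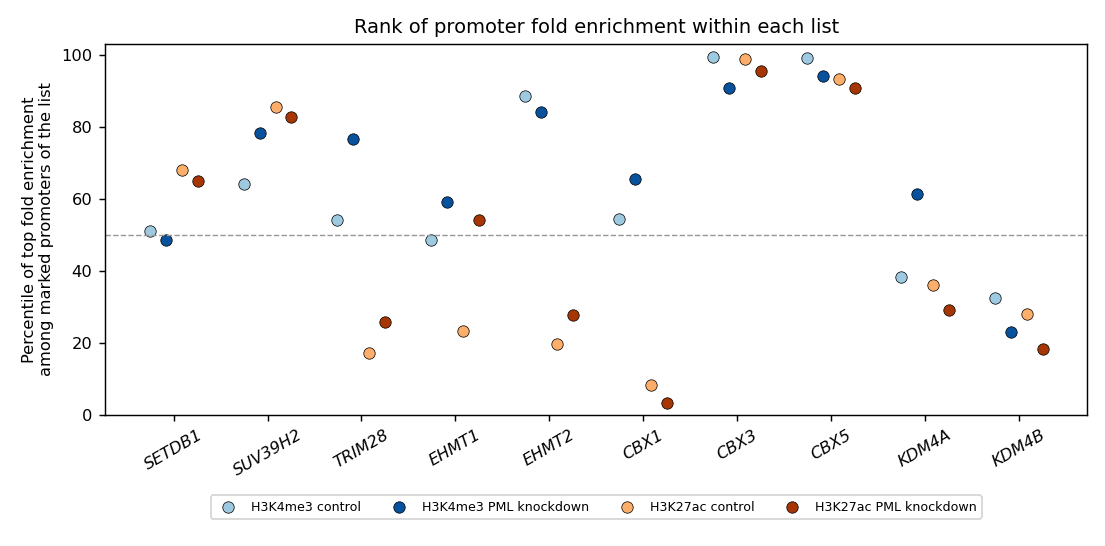
Percentile of each gene's highest promoter fold enrichment among all marked promoters of the same list, with the dashed line at the median. CBX3 and CBX5 are above percentile 90 in all 4 lists, while CBX1, TRIM28 and EHMT2 rank far lower for H3K27ac than for H3K4me3.

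The 10 genes were spread over most of the range of fold enrichments in each list. The highest promoter fold enrichment was above the median of marked promoters in 7 of 10 genes (control) and 8 of 10 (knockdown) for H3K4me3, and in 4 and 5 of 10 for H3K27ac. The H3K4me3 counts include EHMT2 through its peak toward C2 and TRIM28 through its peak inside the gene, neither of which covers the start. The same holds for the upstream peaks through which SUV39H2 was counted in the control list and EHMT1 in the knockdown list. The median over the genes was 19.5 in the control H3K4me3 list, where all marked promoters had 18.4, and 49.6 in the knockdown list, where they had 35.3. For H3K27ac it was 5.87 against 8.26 and 9.71 against 11.2. KDM4B was the only gene below percentile 35 in all 4 lists (32.6 and 23.1 for H3K4me3, 28.1 and 18.3 for H3K27ac).

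Away from the promoters, the gene bodies held few peaks, and most of them lay in KDM4B and at an internal start of CBX5. A gene-body peak is one that overlaps the gene but not the promoter. H3K4me3 gene-body peaks were found in 1 of 10 genes in the control and 3 of 10 in the knockdown list (21.1% and 28.1% of all genes), and H3K27ac ones in 4 and 5 of 10 (36.6% and 38.9%). The 10 genes together held 1 and 5 H3K4me3 gene-body peaks, or 0.149 and 0.743 per 100 kb, against 0.459 and 0.734 over all genes. They held 9 and 11 H3K27ac gene-body peaks, or 1.34 and 1.64 per 100 kb, close to the 1.46 and 1.53 over all genes.

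CBX5 held the strongest of these, in intron 1 about 20.6 kb downstream of the canonical start, in all 4 lists. Its H3K27ac peak was 2217 bp wide with a fold enrichment of 19.98 (control), above 94.2% of that list, and 2493 bp with 20.6 (knockdown), above 89.3%. Its H3K4me3 peak was weaker, 1029 bp with 5.76 and 1676 bp with 12.6. RefSeq places internal CBX5 starts 20.5 and 20.6 kb downstream, and the summits lay 38 to 83 bp from an annotated CBX5 transcript start. The stretch before the farther upstream of these starts (chr12:54259593-54259842, hg38, minus strand), shown to set it beside the canonical promoter, holds 3 CpG in 250 bp with a GC content of 48.4%, against 6 CpG in the 59 bp between CBX5 and HNRNPA1. Capitals mark CCAAT, the only motif of the list found in it.
CBX5 internal start: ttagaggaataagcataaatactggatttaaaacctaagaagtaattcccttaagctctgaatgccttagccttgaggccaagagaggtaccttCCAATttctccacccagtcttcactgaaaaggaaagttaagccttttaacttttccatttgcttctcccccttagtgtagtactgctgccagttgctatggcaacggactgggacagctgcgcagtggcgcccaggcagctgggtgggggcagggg

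KDM4B, a gene of 184 kb, held 6 H3K27ac gene-body peaks in the control and 7 in the knockdown list, all intronic. The peak with the highest fold enrichment in the control list lay 170 kb from the start in intron 18 (5.95 in the control and 5.01 in the knockdown list). In the knockdown list another, in intron 6 about 89.5 kb from the start, was slightly higher (5.26). In the control list the peak there (3.10) ranked below the one in intron 18. H3K4me3 gene-body peaks of KDM4B were in the knockdown list only, 3 of them with fold enrichments of 1.63 to 3.19, all in the lowest 5.79% of that list. KDM4A held 1 weak H3K27ac peak in intron 12 in each list (3.06 and 3.71). EHMT1 held 1 H3K27ac peak about 138 kb downstream in the control list (1632 bp, fold enrichment 5.63) and about 139 kb downstream in the knockdown list (1487 bp, 7.90). A faint H3K4me3 peak of 679 bp (2.83) lay there in the knockdown list only. SETDB1, SUV39H2, EHMT2, CBX1 and CBX3 held no gene-body peak in any list. Of the 9 control H3K27ac gene-body peaks, 8 overlapped a knockdown peak, and of the 11 knockdown ones, 7 overlapped a control peak, where over all genes 90.9% and 83% did. For H3K4me3 this was 1 of 1 control and 1 of 5 knockdown peaks, against 98.8% and 57.9%.

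None of the 10 genes started in a PML, LMNB1 or H3K9me3 domain in either condition. Over all genes the share that did was 13.1% for PML, 12.4% and 11% for LMNB1 (control and knockdown) and 10% and 8.6% for H3K9me3, shares so low that 0 of 10 does not set these genes apart. The median distance from the start to the nearest PML domain was 1996 kb, against 1269 kb over 19111 genes (the PML list holds no domain on chromosome X). To LMNB1 it was 2692 and 2744 kb (all genes, 1484 and 1734 kb), and to H3K9me3 864 and 1435 kb (all genes, 1279 and 2044 kb). Of the 10 genes, 6 were farther from a PML domain than the median gene, 7 and 6 from an LMNB1 domain, and 5 and 3 from an H3K9me3 domain. Bins set the edges of the domains, 9 kb wide in the PML list, 17 and 22 kb in those of LMNB1 and 23 and 35 kb in those of H3K9me3, so differences of that size are not resolved. H3K9me3 sites shorter than a domain were not measured.

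**Figure D4:**
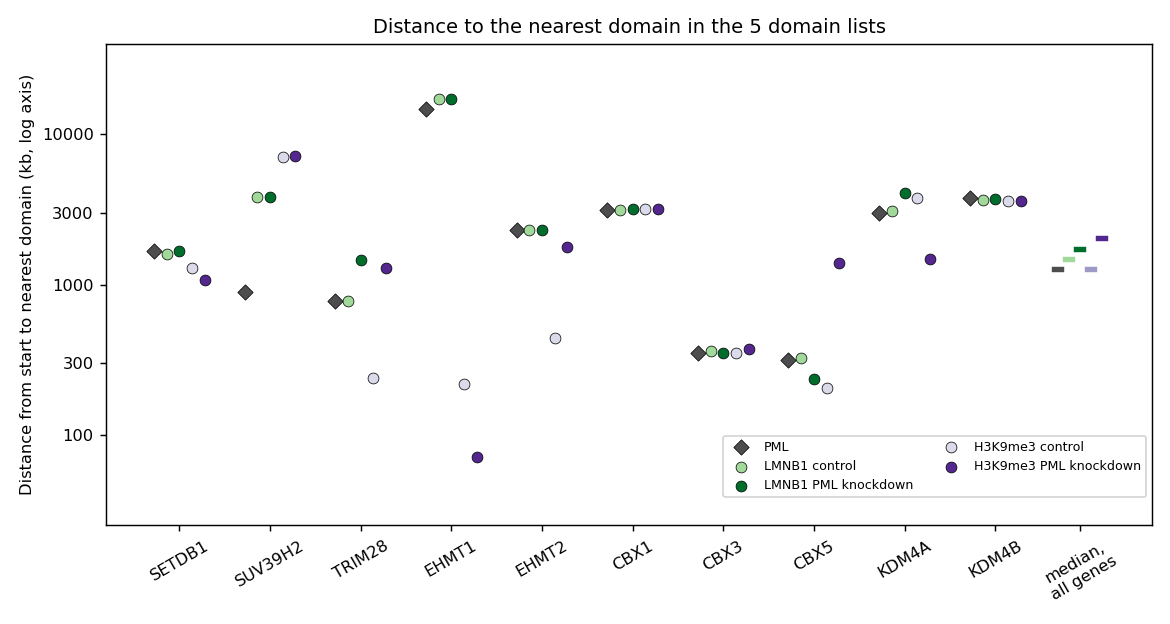
Distance from the canonical start of each gene to the nearest domain in the 5 domain lists (kb, log axis), with the medians of all genes as bars at the right. CBX3 and CBX5 lie near PML and LMNB1 domains, and TRIM28, EHMT2 and CBX5 have an H3K9me3 domain near in the control list only.

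CBX3 and CBX5 were the members nearest to PML and LMNB1 domains. A start within 500 kb of a domain was found for these 2 of 10 genes in the PML list (31.2% of all genes), the control LMNB1 list (29%) and the knockdown LMNB1 list (25.6%). At CBX3 all 5 lists held a domain in the same place, ending between 25830000 and 25852000 on chromosome 7, and the distances ran from 350 to 372 kb. This domain was 612 to 667 kb long and held 1 or 2 gene starts. At CBX5 the PML domain (chromosome 12, 54594001 to 55629000) and the LMNB1 domains lay upstream, 314 kb away for PML and 324 and 236 kb for LMNB1 in the control and knockdown lists, and held 14 or 15 olfactory receptor genes each.

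H3K9me3 domains lay within 500 kb of 5 of 10 genes in the control list (30.1% of all genes) and of 2 of 10 in the knockdown list (23.4%). The 5 were CBX5 (207 kb), EHMT1 (220 kb), TRIM28 (239 kb), CBX3 (350 kb) and EHMT2 (440 kb), and the 2 were EHMT1 (71.0 kb) and CBX3 (372 kb). In the knockdown list the nearest H3K9me3 domain was farther by over 100 kb, a limit set after the distances were seen, for 3 of 10 genes (40% of all genes), and nearer by over 100 kb for 3 of 10 (21.7%). The knockdown H3K9me3 list was also shorter, 281 domains over 361 Mb against 430 over 629 Mb, and the part of this in the distances was not tested.

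The 3 genes with a farther domain were TRIM28, EHMT2 and CBX5. At TRIM28, whose protein is recruited by zinc finger proteins, the control domain ran on chromosome 19 from 56189001 to 58305000 and held 71 gene starts, 43 of them ZNF genes. In the knockdown list it ended at 57260000 and held 22 starts, 9 of them ZNF, so that the distance was 239 kb in the control and 1284 kb in the knockdown list. The LMNB1 domain beside it also ended earlier in the knockdown list, at 57090000 instead of 57766000, for distances of 778 and 1454 kb. At EHMT2 the control domain (chromosome 6, 32338001 to 32821000, 8 of its 10 gene starts being HLA class II genes) had no overlap with the knockdown list, and the nearest knockdown domain was 1772 kb away. At CBX5 the control H3K9me3 domain (chromosome 12, 54487001 to 55660000, with 15 olfactory receptor genes among 23 starts) also had none, for distances of 207 and 1395 kb. The LMNB1 domain at that place was in both lists, with 99.7% of its control bases in the knockdown list.

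The 3 genes with a nearer H3K9me3 domain in the knockdown list were SETDB1, EHMT1 and KDM4A. For SETDB1 the same domain, over the epidermal differentiation genes of chromosome 1, reached from 152005001 instead of 152214001, and distances were 1288 and 1079 kb. For KDM4A a knockdown domain on chromosome 1 from 41265001 to 42175000, with a score of 13.1 in a list whose median score was 15.0, had no overlap with the control list, and distances were 3799 and 1475 kb. The LMNB1 distance of KDM4A was 3083 kb in the control and 4068 kb in the knockdown list. This difference rests on 1 control domain of 442 kb, since with domains of at least 500 kb it was 4069 and 4068 kb. LMNB1 distances were farther by over 100 kb for 2 of 10 genes, TRIM28 and KDM4A (21.2% of all genes), and nearer for 0 of 10 (11.9%).

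EHMT1 was the only one of the 10 genes with any base in a domain, in both H3K9me3 lists. The share of all genes with any base in one was 13.9% for PML, 13.4% and 12% for LMNB1 (control and knockdown) and 11.1% and 9.45% for H3K9me3. In the control H3K9me3 list, a domain of 391 kb (chromosome 9, 137839001 to 138230000) began 2.87 kb beyond the end of the canonical transcript. By these edges it held 31.0 kb of the annotated gene, 12.4% of its length, reached by longer transcripts only. The 2.87 kb is less than the bins of 23 kb of this list, so whether the domain reaches the canonical transcript is not resolved. In the knockdown list the domain (137690001 to 138215000) began 149 kb farther upstream, 71.0 kb from the start. It held 67.3% of the canonical transcript, from exon 2 onward, and 180 kb or 71.7% of the annotated gene. The start and the H3K4me3 and H3K27ac promoter peaks lay outside both domains. The H3K27ac peak near 138 to 139 kb lay in the stretch that was domain in the knockdown list only, and was listed in both conditions. The faint H3K4me3 gene-body peak of the knockdown list lay in that stretch too. A start outside and part of the gene inside a domain, as at EHMT1, was found in the H3K9me3 lists for 1.09% (control) and 0.851% (knockdown) of all genes. It was found for none of the 10 genes in the PML (0.821% of all genes) and LMNB1 lists (1.02% and 1.02%). Both domains were weak and short for their lists, with scores of 15.4 and 11.8 against medians of 27.6 and 15.0. Of the control domain, 96.2% was also in the knockdown list.

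**Figure D5:**
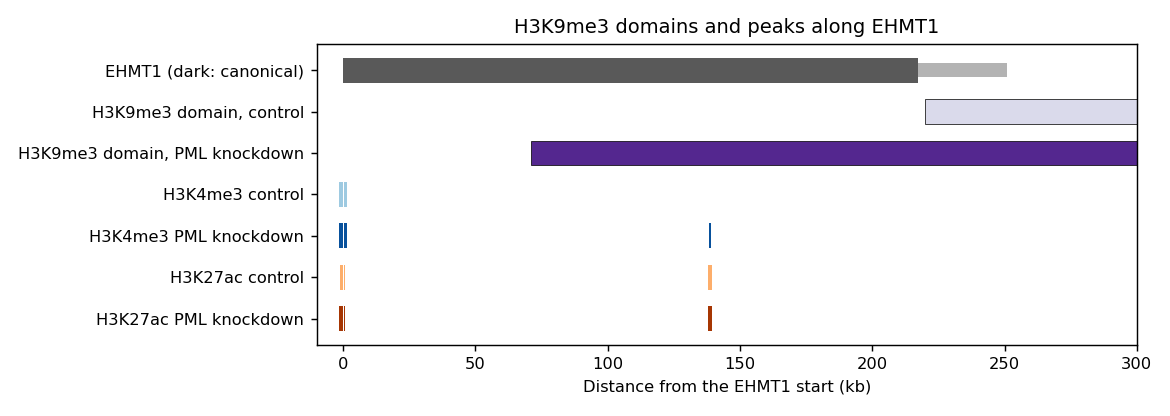
Map of EHMT1 by distance from its start (kb), with the canonical transcript dark and the longer annotated gene light, the H3K9me3 domains of both conditions, and the peaks of the 4 lists to scale. Both domains run on past the right edge, and the knockdown domain begins 71.0 kb into the gene, the control domain at 220 kb.

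With domains of at least 500 kb the control domain at EHMT1 dropped out, and its distances were 2172 and 71.0 kb. Those of EHMT2, whose domains are also shorter than this in both conditions, were then 2320 and 6952 kb. SUV39H2, CBX1 and KDM4B had no H3K9me3 or LMNB1 domain within 3 Mb in either condition, though a PML domain lay 889 kb from SUV39H2. Their H3K9me3 distances were 7128 and 7214 kb, 3189 and 3209 kb, and 3633 and 3606 kb, and EHMT1 lay farthest from LMNB1, 17259 and 17257 kb.

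Beyond the 10 genes, 40 other genes of H3K9 methylation and heterochromatin were looked at for the same measures. Promoters with an H3K4me3 peak were 37 of 40 in the control and 38 of 40 in the knockdown list (61.8% and 63.7% of all genes). Those with an H3K27ac peak were 34 and 35 of 40 (50.8% and 53.7%). PRDM16 and CDYL2 held no promoter peak in any list, and PRDM2, WIZ and CHAF1B, a subunit of chromatin assembly factor 1, none of H3K27ac. Promoters marked in the knockdown list only were 1 of 40 for each mark (1.79% of all genes for H3K4me3 and 3.24% for H3K27ac). They were WIZ, a partner of EHMT1 and EHMT2, with H3K4me3 (301 bp, fold enrichment 8.83), and KDM7A, a demethylase, with H3K27ac (421 bp, 6.06). SUV39H1, the paralogue of SUV39H2 on chromosome X, held 2 promoter peaks of each mark in both conditions, with H3K4me3 over 1720 and 2059 bp. H3K4me3 was wider in the knockdown list for 36 of 37 and H3K27ac for 21 of 34 of these genes (95.5% and 70.5% of all promoters marked in both). The median ratios were 1.14 and 1.08, against 1.14 and 1.08 over all promoters.

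Of these 40 genes, 3 started in a PML domain (13.1% of all genes): PPHLN1, a subunit of the HUSH complex that acts with SETDB1, KDM4D and SGO1. KDM4D also started in LMNB1 domains of both conditions, as the only 1 of 40 (12.4% and 11% of all genes). In H3K9me3 domains started PRDM2, PRDM16 and ATF7IP2 in both conditions and ZNF274, a zinc finger protein that recruits SETDB1, in the control list only (923 kb away in the knockdown list). PHF2, a demethylase (2543 kb away in the control list), and WIZ (6.05 kb away) started in one in the knockdown list only. For WIZ the distance is less than the bins of 23 and 35 kb of these lists, so its difference is not resolved. The counts of starts in an H3K9me3 domain were 4 (control) and 5 (knockdown) of 40, against 10% and 8.6% of all genes. PPHLN1, KDM4D, SGO1, ATF7IP2, ZNF274 and PHF2, though each started in a domain in at least 1 list, carried promoter peaks of both marks in all 4 lists. PRDM16, PRDM2 and WIZ also started in a domain and did not. PRDM16 held no promoter peak, PRDM2 none of H3K27ac, and WIZ only H3K4me3 in the knockdown list.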

How the data were processed

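Per the labels' protocols, MDA-MB-231 cells were fixed with disuccinimidyl glutarate and formaldehyde before immunoprecipitation. The submitters' processing notes name hg38, deepTools, MACS2 2.2.7.1, Picard 1.104 and BWA 0.7.12-r1039 without a role. The deposited peak lists give a fold enrichment (a ratio), a -log10 q-value and an integer score per peak, and peak names show that replicates 1 and 2 were called together. The deposited domain lists give 1 score per domain with no unit stated, and EDD appears only in their names. The marks ct and pml in peak names were read as control and PML knockdown, and domain lists that name no hairpin as control. Reads and depth were not used here. No peak ended past its chromosome in the hg38 reference, and domains did so by at most 13378 bp.

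Overlaps, widths and distances were computed with Python 3.11.15, numpy 2.4.6 and pandas 2.3.3 on chromosomes 1 to 22 and X, with GENCODE release 44, after interval functions had been checked on simulated data. Peaks counted from 1 bp of overlap. Percentiles of widths and fold enrichments are among the promoters marked in a list. No test was run, since each condition has 1 list. The members and lists were chosen with earlier results of these data known. All 10 members are named. Of the 40 other genes, those with a promoter peak in 1 list only, lacking a promoter peak in any list, or starting in a domain are named, with SUV39H1, and likewise coding neighbours whose canonical start lies on the opposite strand within 1 kb.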

Additional observations from a re-analysis of the deposited data

How the results depend on the processing

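Of 96 values recomputed under other settings, 80 were unchanged or, for counts, within 1.5 times. All 10 promoters stayed marked in all 4 lists, and none was in 1 list only, under every setting run: promoters of 500 or 2500 bp on either side, -log10 q of at least 5, any coding start, equal numbers of peaks and 50% overlap. Counting bases within 2500 bp of the start, the median width in the knockdown lists was 2684 bp for H3K4me3 and 1809 bp for H3K27ac, and the median ratios were 1.10 and 1.11, with H3K27ac wider in the knockdown list at 8 of 10 genes. Gene-body H3K4me3 peaks over 2500 bp from every start were 0 in the control list, and with -log10 q of at least 5 the knockdown counts were 2 for H3K4me3 and 7 for H3K27ac. Measured from the edge of the gene, median distances were 1968 kb for PML, 2655 and 2735 kb for LMNB1 (control and knockdown) and 845 and 1411 kb for H3K9me3, and 1 gene, EHMT1, had bases in an H3K9me3 domain in each condition. With domains of at least 500 kb the control medians were 2719 kb for LMNB1 and 2246 kb for H3K9me3, because short domains at EHMT1, EHMT2 and KDM4A dropped out. No paired analysis was possible because no list gives values per replicate, and no test was run. Read depth is unknown, so what was not listed may lie below detection.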
